A study of Mus musculus with 6 samples.

Results

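EphB receptors and ephrin-B ligands were examined in RNA-sequencing data from mouse small intestine epithelium at E13.5, with and without *Tcf7l1*. The family was taken by gene symbol and holds 8 of the 23366 genes counted, the 5 receptor genes *Ephb1*, *Ephb2*, *Ephb3*, *Ephb4* and *Ephb6* and the 3 ligand genes *Efnb1*, *Efnb2* and *Efnb3*. The 3 mutant libraries came from embryos with the genotype Shh-cre-egfp:Tcf7l1 lox/lox, in which the *Shh* locus drives Cre recombinase and EGFP in the endoderm and the loxP-flanked part of *Tcf7l1* is deleted there, and the 3 control libraries came from wild type embryos. All embryos were untreated. Each library was made from 500 living EpCAM+ cells. The series has no library labelled as Cre-positive with *Tcf7l1* intact, so an effect of the Cre allele cannot be told apart from that of *Tcf7l1* loss. The series describes 3 biological replicates in a group, and whether a library holds cells of 1 embryo or of several is not given in the sources used here.

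EphB receptors are receptor tyrosine kinases of the cell surface, and ephrin-B ligands are transmembrane proteins on the neighbouring cell, so that binding signals into both cells. The resulting repulsion or adhesion keeps cell populations apart and guides axons, crest cells and vessels. In the adult intestine, WNT signalling through β-catenin and TCF factors keeps *Ephb2* and *Ephb3* high in crypt cells, while ephrin-B1 and ephrin-B2 are found towards the villus, and the opposing gradients hold cells at their place along the crypt. TCF7L1 is the TCF family member that mostly represses WNT target genes.

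The 6 libraries held from 18216537 to 20397278 counts each. By a chi-square per gene between libraries, wild type 3 stood apart from its group, at 16 and 17.9 from wild type 1 and 2, which were 8.57 from each other. It was also the wild type library nearest to the mutants, at 27.9 to 32.3 against 39 to 54.2 for the other wild type libraries, and it had the lowest wild type value of *Ephb4*, *Ephb6*, *Efnb1* and *Efnb2*. Without wild type 3, the log2 fold change was -0.90 for *Ephb4*, -2.85 for *Ephb6*, -0.48 for *Efnb1*, -0.75 for *Efnb2*, -1.15 for *Ephb3* and -0.28 for *Ephb2*. *Tcf7l1* itself had 476, 474 and 364 normalized counts in wild type 1, 2 and 3, against 41.4, 33.0 and 73.0 in mutant 1, 2 and 3. Among epithelial marker genes, *Epcam* had between 47961 and 57037 normalized counts in wild type and between 60360 and 64100 in mutant libraries, and all 16 markers were detected. Of 12 endothelial markers, *Cdh5*, *Kdr*, *Tek*, *Emcn* and *Cldn5* had 0 counts in all 6 libraries, and the whole list summed to between 49.4 and 109 normalized counts in wild type and between 24.3 and 45.8 in mutant libraries. Mesenchymal markers summed to between 1327 and 1614 in wild type and between 1059 and 1481 in mutant libraries, mostly *Vim*, and of 15 written 14 were in the table. *Vim* itself had between 1179 and 1389 normalized counts in wild type against 864 to 962 in mutants (log2 fold change -0.46, edgeR quasi-likelihood adjusted p = 0.0049). *Col3a1* (-2.21, adjusted p = 0.0263) and the untested *Pdgfra* were also lower in every mutant library, while *Acta2* stood at 489 in mutant 3 against 69.4 to 171 in the other libraries. The part of these markers in the values of the family was not tested. The sums of 9 neural crest and enteric neuron markers were 384 to 437 and 341 to 573, and those of 10 blood markers 22.8 to 61.5 and 8.52 to 16.6. Every mutant library had 0 counts of *Ddx3y*, *Kdm5d*, *Uty* and *Eif2s3y*, all on the Y chromosome, and every wild type library had 0 of *Xist*, so sex and genotype cannot be told apart here.

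Normalized counts are counts scaled by edgeR's TMM factors to the mean library, and each mean carries the SD of its 3 libraries. Mutant and wild type were tested with the quasi-likelihood method of edgeR, adjusted by the Benjamini-Hochberg method over 12501 tested genes. A gene passed the test at an adjusted p under 0.01. It was called when its log2 fold change was also at least 0.5 in size and its mean normalized count at least 50. Of the 8 members, 6 had enough counts to be tested, and *Ephb1* and *Efnb3* did not. All 6 had a negative log2 fold change, with a median of -0.68, while 54.3% of all tested genes were negative, with a median of -0.04. *Ephb4* and *Ephb6* passed the test, both lower in mutants, where 7.61% of all tested genes passed lower and 7.32% higher. Only *Ephb4* met all criteria for a call, against 5.83% of tested genes called lower and 2.78% called higher. The groups did not overlap for *Ephb3*, *Ephb4* and *Ephb6*, all with lower mutant values. The same held for 22.2% of all tested genes, and 20.8% were separate with higher mutant values. In bulk libraries, fewer cells with a transcript and less of the transcript in each cell cannot be told apart.

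**Figure D1:**
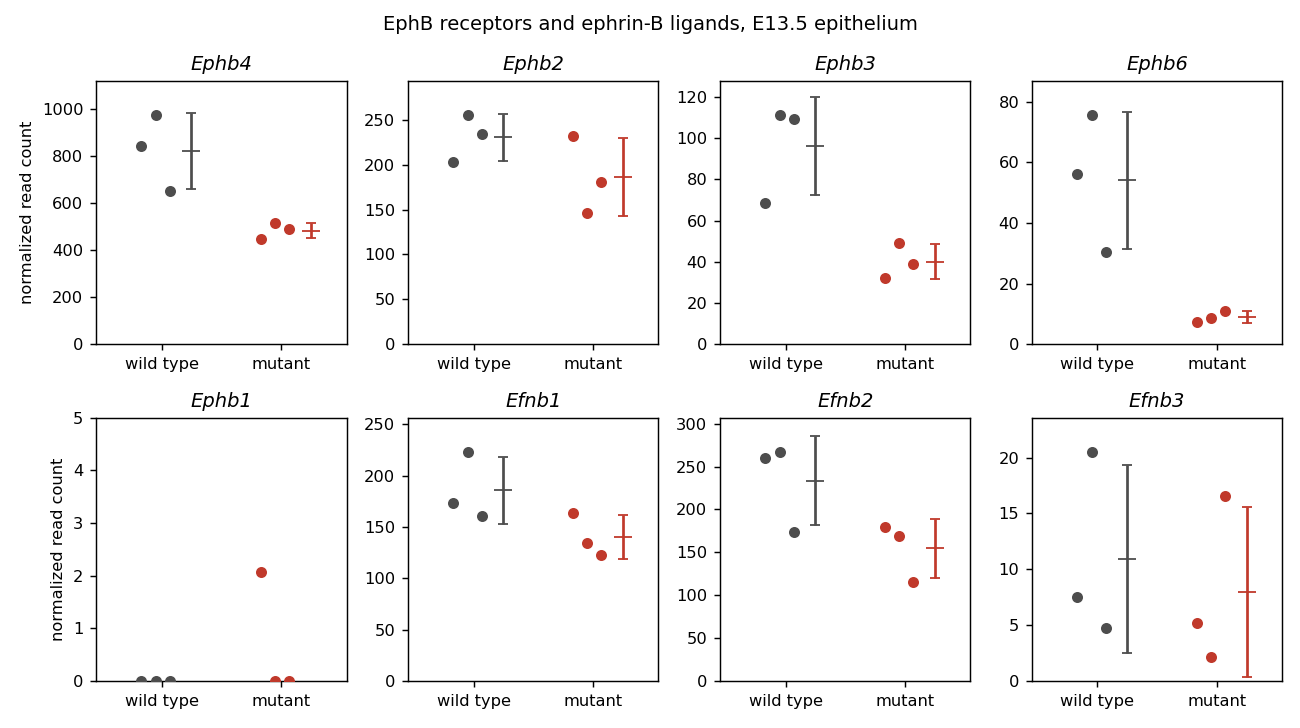
Normalized read counts of the 8 genes in each library, with a linear axis from 0 for each gene. Points are libraries, and the bars beside them give the mean ± SD of 3 libraries (not drawn for *Ephb1*, with 2 counts in all). *Ephb3*, *Ephb4* and *Ephb6* show separate groups, and the other genes overlap.

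*Ephb4*, the receptor best known for its pairing with ephrin-B2 between veins and arteries, was the most highly expressed receptor of the family and fell in mutants. It had 845, 974 and 653 normalized counts in wild type 1, 2 and 3, against 448, 514 and 489 in mutant 1, 2 and 3. Every mutant library lay below every wild type library, and the mutant values were closer together than the wild type values. Mutants averaged 484 ± 33.3 against 824 ± 162 in wild type, 1.70-fold lower (log2 fold change -0.77 with an SE of 0.15, edgeR quasi-likelihood adjusted p = 0.0013). From the counts summed over libraries, the mutant level was 58.6% of wild type, with an exact 95% interval from 54.8% to 62.6% that covers counting error only. The call rested in part on wild type 2, the library with the highest value. Without it the log2 fold change was -0.63 and the adjusted p 0.0119, while the call was kept in the other 5 fits that left out a library, and over all alternatives the adjusted p ranged from 4.0e-05 to 0.0119. *Ephb4* maps to chr5:137791337-137819897 of mm9 (plus strand), and its exons cover 4640 bases. Exons of *Zan*, on the opposite strand, overlap 33 of these. Vessels also carry *Ephb4*, and the endothelial marker sums above were lower in every mutant library than in any wild type library. Of that list only *Sox18* had separate groups, at 41.3, 68.1 and 19.0 against 1.04, 5.32 and 0 normalized counts. The others overlapped. *Esam* averaged 17.8 in wild type against 15.9 in mutants, while the mutant means of *Pecam1* (3.80 against 8.01) and *Eng* (7.50 against 9.67) were higher. The part of vessel cells in the difference in *Ephb4* was not tested.

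*Ephb6* encodes a receptor whose kinase domain is catalytically inactive and which acts through its partner receptors. It had 56.3, 75.5 and 30.4 normalized counts in the wild type libraries and 7.25, 8.52 and 11.1 in the mutant libraries. The lowest wild type library was still well above the highest mutant library. The mean fell from 54.1 ± 22.6 to 8.94 ± 1.94, 5.99-fold (log2 fold change -2.58 with an SE of 0.55, edgeR quasi-likelihood adjusted p = 0.0028). The mean over all libraries, 31.5, is under the minimum of 50, so it was not called. The mutant libraries held 25 counts in all against 173, or 16.4% of wild type after scaling (exact 95% interval for counting error 10.3% to 25.1%). The decrease had the largest fold of the family and also the fewest counts among the tested members. It passed the test in 2 of the 6 fits that left out a library, those without wild type 3 and without mutant 3, and the adjusted p was 0.0290 without wild type 2, 0.0149 without mutant 1, 0.0146 without wild type 1 and 0.0126 without mutant 2. Over all alternatives it ranged from 3.4e-04 to 0.0290. *Ephb6* maps to chr6:41555481-41570508 of mm9 (plus strand).

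*Ephb3*, with *Ephb2* the receptor of adult crypt and Paneth cells, had 68.5, 111 and 109 normalized counts in wild type 1, 2 and 3. In mutant 1, 2 and 3 it had 32.1, 49.0 and 38.7. The groups were separate, with wild type 1 the closest of its group to the mutants. Mutants averaged 39.9 ± 8.51 against 96.2 ± 24.1 in wild type (log2 fold change -1.27 with an SE of 0.34, edgeR quasi-likelihood adjusted p = 0.0126), which missed the adjusted p of 0.01. It met the criteria for a call in 4 alternatives, with DESeq2 (adjusted p = 0.0092), with scaling by library size alone (0.0099), with no filter on low counts (0.0057) and with a filter at a mean of 50 counts (0.0078). Over all alternatives the adjusted p ranged from 0.0057 to 0.0592. *Ephb3* maps to chr16:21204828-21223378 of mm9 (plus strand).

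*Ephb2*, the other crypt receptor, had 203, 255 and 234 normalized counts in the wild type libraries and 232, 146 and 181 in the mutant libraries. Mutant 1 lay within the wild type range. Mutants averaged 186 ± 43.2 against 231 ± 26.1 in wild type (log2 fold change -0.31 with an SE of 0.21, edgeR quasi-likelihood adjusted p = 0.290), with a 95% interval from -0.75 to 0.14. The log2 fold change was -0.50 without mutant 1 and -0.16 without mutant 2, the lowest and highest over the fits that left out a library. *Ephb2* maps to chr4:136203454-136391903 of mm9 (minus strand). *Ephb1*, a receptor of axon guidance on the minus strand of chromosome 9 (101824458 to 102257023), had 0 counts in all wild type libraries, 2 counts in mutant 1 and 0 in mutants 2 and 3. Both groups were under a floor of 3 counts, so no fold is given.

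Of the ligand genes, *Efnb1* and *Efnb2* were expressed at similar levels and neither passed the test. *Efnb2*, the arterial partner of *Ephb4*, had 260, 267 and 174 normalized counts in wild type 1, 2 and 3, against 180, 169 and 115 in mutant 1, 2 and 3. The values of wild type 3 and mutant 1 overlap. Mutants averaged 155 ± 34.9 against 233 ± 51.7 in wild type (log2 fold change -0.59 with an SE of 0.23, edgeR quasi-likelihood adjusted p = 0.0664), with a 95% interval from -1.08 to -0.10. Over the alternatives its adjusted p ranged from 0.0200, without wild type 3, to 0.233. *Efnb2* maps to chr8:8617434-8661239 of mm9 (minus strand).

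*Efnb1* encodes ephrin-B1, whose gene is on the X chromosome (plus strand, 96331469 to 96344330 of mm9). It had 173, 223 and 161 normalized counts in wild type 1, 2 and 3, against 164, 134 and 123 in mutant 1, 2 and 3. Mutant 1 and wild type 3 overlap. Mutants averaged 140 ± 21.1 against 186 ± 32.8 in wild type (log2 fold change -0.40 with an SE of 0.22, edgeR quasi-likelihood adjusted p = 0.185), with a 95% interval from -0.87 to 0.07. Without wild type 2 the log2 fold change was -0.25. Since the groups differ in *Xist* and in Y-linked genes, the X-linked genes were read beside it. Of 422 tested X-linked genes, 25 (5.92%) were called lower and 12 (2.84%) higher, against 5.83% and 2.78% of all tested genes, and their median log2 fold change was -0.02. *Efnb3*, the ligand of the spinal cord midline, lies on the minus strand of chromosome 11 (69367594 to 69373707). Its normalized counts were 7.50, 20.5 and 4.75 in the wild type libraries against 5.18, 2.13 and 16.6 in the mutants, which overlap widely. With no filter on low counts its log2 fold change was -0.45, with an SE of 1.07 and an edgeR quasi-likelihood adjusted p of 0.80, so a difference was not detectable at this depth.

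Levels of different genes were compared as CPM per kilobase of exon. In wild type libraries, *Ephb4* was highest at 9.09 ± 1.78, above *Efnb1* at 2.75 ± 0.487 and *Efnb2* at 2.495 ± 0.552, whose values overlap. Next came *Ephb2* at 0.938 ± 0.106, *Ephb3* at 0.783 ± 0.196 and *Ephb6* at 0.734 ± 0.307, which overlap one another, and then *Efnb3* at 0.176 ± 0.135. In mutant libraries the order of the first 4 was the same, with *Ephb4* at 5.34 ± 0.367, *Efnb1* at 2.08 ± 0.312, *Efnb2* at 1.66 ± 0.373 and *Ephb2* at 0.757 ± 0.176. *Ephb3* followed at 0.325 ± 0.0693, and *Ephb6*, at 0.121 ± 0.0264, was then at the level of *Efnb3*, at 0.128 ± 0.123. *Ephb4* held 53.5% ± 1.39 of the summed family level in wild type and 51.4% ± 4.47 in mutant libraries, while *Ephb6* held 4.19% ± 1.07 and 1.17% ± 0.306. Per coding length, the share of *Ephb4* was 34.6% in wild type and 31.5% in mutants and that of *Ephb6* 2.17% and 0.577%. In mutant 1 *Ephb4*, at 26.8%, was then below *Efnb1* at 28.2% and *Efnb2* at 27.7%. The annotated exons of *Ephb2* cover 12608 bases and its coding sequence 2964. Per coding length, *Ephb2* had between 3.52 and 4.41 in the wild type libraries. *Ephb3* then had between 1.18 and 1.9 and *Ephb6* between 0.511 and 1.27. The overlap of *Ephb2* with *Ephb3* and *Ephb6* per exon length was thus lost with this length.

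The summed receptor level per kilobase was 11.5, 13.7 and 9.46 in wild type 1, 2 and 3, against 6.27, 6.78 and 6.6 in mutant 1, 2 and 3. The summed ligand level was 5.47, 6.49 and 4.32 in the wild type libraries against 4.44, 3.83 and 3.32 in the mutants. The receptor sums were thus separate and the ligand sums overlapped, with *Ephb4* making up most of the receptor sum. The ratio of receptors to ligands was 2.10, 2.12 and 2.19 in the wild type libraries against 1.41, 1.77 and 1.99 in the mutants. Per kilobase of coding sequence, a length chosen after seeing the data, the ratios were 0.986, 1.02 and 1.11 in the wild type libraries against 0.761, 0.867 and 1.03 in the mutants, which overlap.

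**Figure D2:**
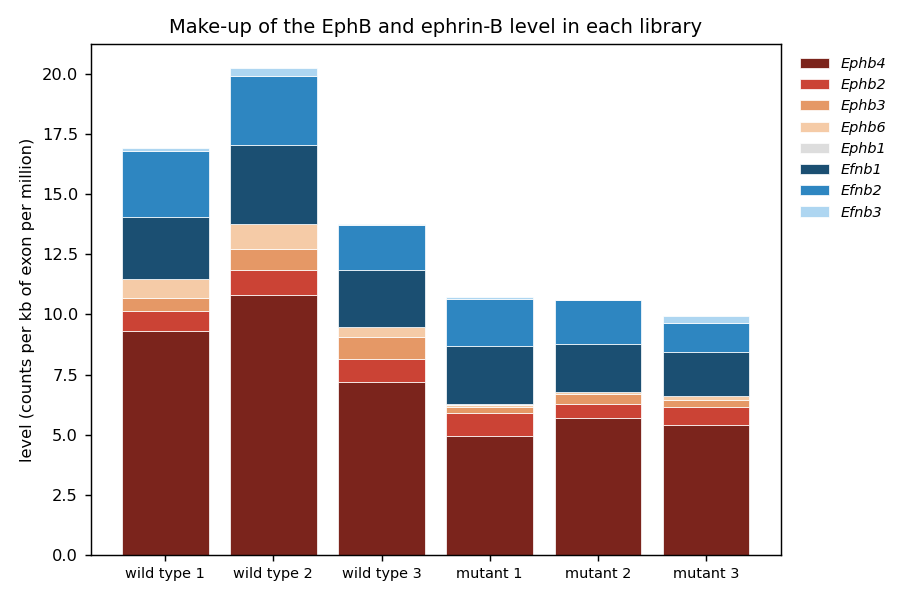
Level of each gene (CPM per kilobase of exon) stacked for each library, receptors in red shades (*Ephb1* in grey) and ligands in blue. *Ephb4* is the largest block in all 6 libraries, and the mutant stacks are lower than every wild type stack.

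The closest relatives, the EphA receptors and their ligands, the ephrin-A proteins anchored in the membrane by a lipid, included *Efna2* and *Epha1*, which fell. Of 14 genes, 9 were tested, 2 were called lower and 0 higher, where 5.83% and 2.78% of all tested genes were, and their median log2 fold change was -0.35. *Efna2* had 397, 479 and 473 normalized counts in the wild type libraries against 227, 210 and 280 in the mutants (log2 fold change -0.91 with an SE of 0.17, edgeR quasi-likelihood adjusted p = 0.0010). *Epha1*, a receptor of epithelia, had 301, 381 and 333 in the wild type libraries against 214, 155 and 187 in the mutants (log2 fold change -0.87 with an SE of 0.18, adjusted p = 0.0029). The call of *Efna2* was kept in all 6 fits that left out a library, and that of *Epha1* in 3 of 6, being lost without wild type 2, mutant 2 or mutant 3. *Efna5* (log2 fold change -0.67, adjusted p = 0.0171) and *Efna4* (-0.46, 0.0224) did not pass, although their groups were separate. *Epha2* (0.30, 0.117) did not pass either, and its groups were separate in the other direction. It had 485, 514 and 431 in the wild type libraries against 516, 583 and 666 in the mutants. Over all tested genes, 22.2% were separate with lower and 20.8% with higher mutant values. *Efna1* (0.16, 0.280), *Epha7* (-0.05, 0.821), *Epha4* (-0.35, 0.419) and *Efna3* (-0.35, 0.714) had overlapping groups and did not pass. *Efna1* was the most counted gene of this family, at 1006 ± 95.2 normalized counts in wild type against 1125 ± 71.8 in the mutants.

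**Figure D3:**
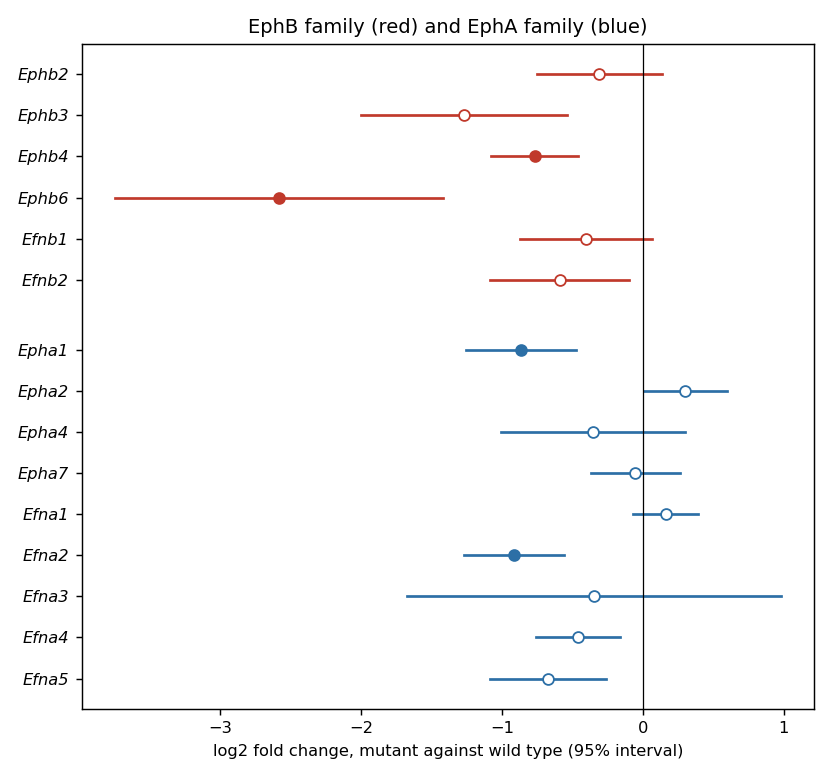
Log2 fold change of mutant against wild type for the tested EphB family genes (red) and EphA family genes (blue). Lines are 95% intervals from the edgeR fit, and filled points mark an adjusted p under 0.01, reached by *Ephb4*, *Ephb6*, *Epha1* and *Efna2*.

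Of 48 genes that carry Eph and ephrin signals inside the cell, 44 were tested, 5 were called lower and 2 higher, against 5.83% and 2.78% of all tested genes, and the median log2 fold change was -0.11. With the correction for gene length, 1 of them was called lower. *Chn2*, a chimaerin that switches off Rac, rose to 1058 ± 32.4 normalized counts in mutants from 460 ± 47.4 (log2 fold change 1.20 with an SE of 0.12, edgeR quasi-likelihood adjusted p = 3.0e-06). *Pard6b*, a polarity protein, rose from 1832 ± 265 to 2844 ± 121 (log2 fold change 0.63, adjusted p = 2.5e-04). The adaptors *Grb7* (log2 fold change -0.56, adjusted p = 6.9e-05) and *Crkl* (-1.12, 0.0010) fell, as did *Cdh1*, which encodes E-cadherin (-0.57, 0.0010). *Ptpn13*, a phosphatase that acts on ephrin-B (-0.95, 0.0073), and *Inppl1*, the lipid phosphatase SHIP2 (-1.21, 0.0092), also fell. The calls of *Ptpn13* and *Inppl1* were kept in 1 and 2 of the 6 fits that left out a library, those without mutant 3 and, for *Inppl1*, also without wild type 3, while *Chn2*, *Pard6b*, *Grb7* and *Crkl* were called in all 6 and *Cdh1* in 4, all but those without wild type 2 or mutant 2. *Adam10*, the sheddase of ephrins and E-cadherin, had a log2 fold change of -0.17 (adjusted p = 0.344).

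Because crypt *Ephb2* and *Ephb3* are WNT targets, other crypt WNT target genes were read from the same fit. Of 22 genes, 17 were tested, 3 were called lower and 0 higher, against 5.83% and 2.78% of all tested genes, with a median log2 fold change of -0.22. With the gene-length correction, 1 was called lower, and with the centred correction 2 were. *Sox9* fell to 1955 ± 62.1 normalized counts in mutants from 3205 ± 490 (log2 fold change -0.71, edgeR quasi-likelihood adjusted p = 8.4e-05). *Tnfrsf19* (-1.25, 0.0022) and *Smoc2* (-0.94, 0.0071) were called too. *Tnfrsf19* lost its call without wild type 2, mutant 1 or mutant 2, and *Smoc2* without wild type 1, wild type 2, mutant 1 or mutant 3. *Axin2*, the usual readout of WNT activity, had a log2 fold change of -0.25 (adjusted p = 0.767) at between 15.2 and 35.4 normalized counts. Among the genes not called, the groups were separate for *Lgr5*, the crypt stem cell receptor, at -0.52 (0.0200), and in the other direction for *Sp5*, a direct WNT target, at 1.12 (0.0950). *Znrf3* (0.33, 0.404) and *Myc* (0.13, 0.253) had overlapping groups. Among the 16 epithelial markers, 6 were called lower and 0 higher, against 5.83% and 2.78% of all tested genes. By adjusted p alone, 9 passed lower and 1 higher, *Cldn7* (log2 fold change 0.24, adjusted p = 0.0091), and *Epcam* was higher in every mutant library without passing (0.25, 0.0130). Those called were *Cdh1*, *Krt18*, *Cldn6*, *Cdx2*, *Ihh* and *Shh*, whose locus carries Cre in the mutants, the last with 481 ± 65.8 in wild type and 198 ± 22.6 in mutant libraries. The part of this in the values of the family was not tested.

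Over all tested genes, the log2 fold change varied with exon length, with a median of 0.19 in 1262 genes up to 1500 bases and of -0.15 in 2316 genes between 4500 and 6500 bases. The tested members have exons between 3452 and 12608 bases, in the range where 60.8% to 64.2% of genes were negative. *Ephb4* stayed called with a correction for length (log2 fold change -0.54, adjusted p = 0.0075) and with the correction centred on a median of 0 (-0.63, 0.0042). *Ephb6* also passed the test in both, at -2.37 and -2.46. For *Ephb3* the correction gave -1.06 (adjusted p = 0.0310), and for *Efnb2* -0.36 (0.233). *Efnb1* went from -0.40 to -0.22 and *Ephb2* from -0.31 to -0.12, a move of over 1.5 times for each of these 3 genes. Before centring, the correction also raised the median of all genes from -0.04 to 0.09. With the centred correction the moves were smaller, to -0.45 for *Efnb2*, -0.31 for *Efnb1* and -0.21 for *Ephb2*. *Ephb3* was then at -1.14 (edgeR quasi-likelihood adjusted p = 0.0258).

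**Figure D4:**
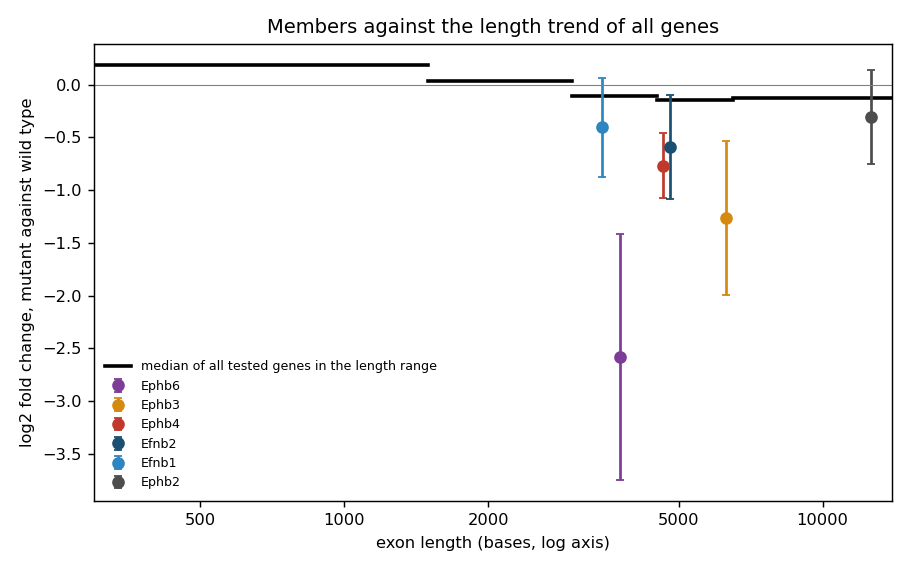
Log2 fold change of the 6 tested members with 95% intervals against exon length on a log axis, and the median of all tested genes in 5 length ranges (black). All members are below the black line, and *Ephb6*, *Ephb3* and *Ephb4* are below it with their whole interval.

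The gene with the profile most like that of *Ephb4* over the 6 libraries, by the root mean square difference of centred log2 CPM, was *Klhl17*, at 0.0514. *Klhl17* had 343, 384 and 266 normalized counts in the wild type libraries against 170, 209 and 181 in the mutants. It was called lower (log2 fold change -0.83, edgeR quasi-likelihood adjusted p = 0.0044), a call kept in 2 of the 6 fits that left out a library. Next was *Sh2d7*, at 0.0599, with 33.8, 38.2 and 28.5 in the wild type libraries against 16.6, 20.2 and 18.8 in the mutants. At these low counts *Sh2d7* did not pass the test (log2 fold change -0.85, edgeR quasi-likelihood adjusted p = 0.223). Both genes were picked for their likeness to *Ephb4* in these same libraries. Their lower mutant values follow from that choice and are not a separate result. Among the 12501 tested genes, 119 others lay within 0.15 of the profile of *Ephb4*.

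The sequences before the gene starts are shown because the deleted factor binds DNA. TCF and LEF factors bind sites with the core CTTTGA, searched here as the 9-letter forms CCTTTGAAC, CCTTTGAAG, CCTTTGATC, CCTTTGATG, GCTTTGAAC, GCTTTGAAG, GCTTTGATC and GCTTTGATG, on both strands, within 2000 bases upstream of the annotated start in mm9. A match was found before 3 of the 8 members and before 16.9% of 19600 protein-coding genes. None lay before *Ephb3*, *Ephb4* or *Ephb6*, the genes whose groups were separate, nor before *Efnb2* or *Efnb3*, which says only that these letters are not in this window. The 4 matches are printed 5′ to 3′ on the strand of the gene, with the match in capitals, and lie 704 bases upstream of *Ephb1* (chr9:102257707-102257739), 1291 upstream of *Ephb2* (chr4:136393174-136393206), and 1700 and 1245 upstream of *Efnb1* (chrX:96329757-96329789 and chrX:96330212-96330244).
Ephb1: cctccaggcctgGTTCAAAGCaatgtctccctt
Ephb2: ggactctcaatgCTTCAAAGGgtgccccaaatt
Efnb1, 1700 bases upstream: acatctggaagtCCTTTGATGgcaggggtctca
Efnb1, 1245 bases upstream: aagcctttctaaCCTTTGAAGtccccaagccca

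The 250 bases before the start of the 3 receptor genes with separate groups are given below, 5′ to 3′ on the plus strand of mm9, since these were the members with the lowest log2 fold changes. Capitals mark GC boxes, GGGCGG or its reverse complement CCGCCC, a motif bound by SP1 family factors and chosen with the values known. Each of these promoters holds 4 such matches. *Efnb2* holds 3, and *Ephb1*, *Ephb2*, *Efnb1* and *Efnb3* hold 0. A GC box was found in the same window of 4 of the 8 members and of 42.1% of 19600 protein-coding genes. How many of those genes hold several was not counted, so the numbers of matches have no background here. The motif and the promoters shown were chosen with the values known, so these numbers are not a test. The windows are chr16:21204578-21204827 for *Ephb3*, chr5:137791087-137791336 for *Ephb4* and chr6:41555231-41555480 for *Ephb6*, and none of them overlaps an annotated exon.
Ephb3: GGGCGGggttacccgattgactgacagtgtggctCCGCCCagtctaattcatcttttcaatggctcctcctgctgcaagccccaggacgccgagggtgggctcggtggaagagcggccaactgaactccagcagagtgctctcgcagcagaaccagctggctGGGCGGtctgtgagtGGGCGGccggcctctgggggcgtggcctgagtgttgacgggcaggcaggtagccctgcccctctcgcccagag
Ephb4: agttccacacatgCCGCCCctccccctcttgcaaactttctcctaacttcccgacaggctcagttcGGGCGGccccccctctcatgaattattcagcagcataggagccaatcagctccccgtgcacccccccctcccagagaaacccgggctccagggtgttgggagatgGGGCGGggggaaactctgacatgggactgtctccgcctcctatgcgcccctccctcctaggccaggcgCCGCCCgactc
Ephb6: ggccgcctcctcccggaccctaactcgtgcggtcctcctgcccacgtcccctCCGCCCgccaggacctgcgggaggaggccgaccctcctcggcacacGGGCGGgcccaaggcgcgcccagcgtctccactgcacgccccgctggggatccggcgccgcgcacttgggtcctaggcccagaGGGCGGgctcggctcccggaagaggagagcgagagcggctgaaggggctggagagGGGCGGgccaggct

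The G and C content of these windows was 65.6%, 64.0% and 76.0%, against 68.8% for *Ephb2* and a median of 55.2% over all genes scanned. No window of 84 bases, the read length, in the longest coding transcript of any member occurred in a coding transcript of another gene. Non-coding transcripts, pseudogenes and the rest of the genome were not searched.

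**Figure D5:**
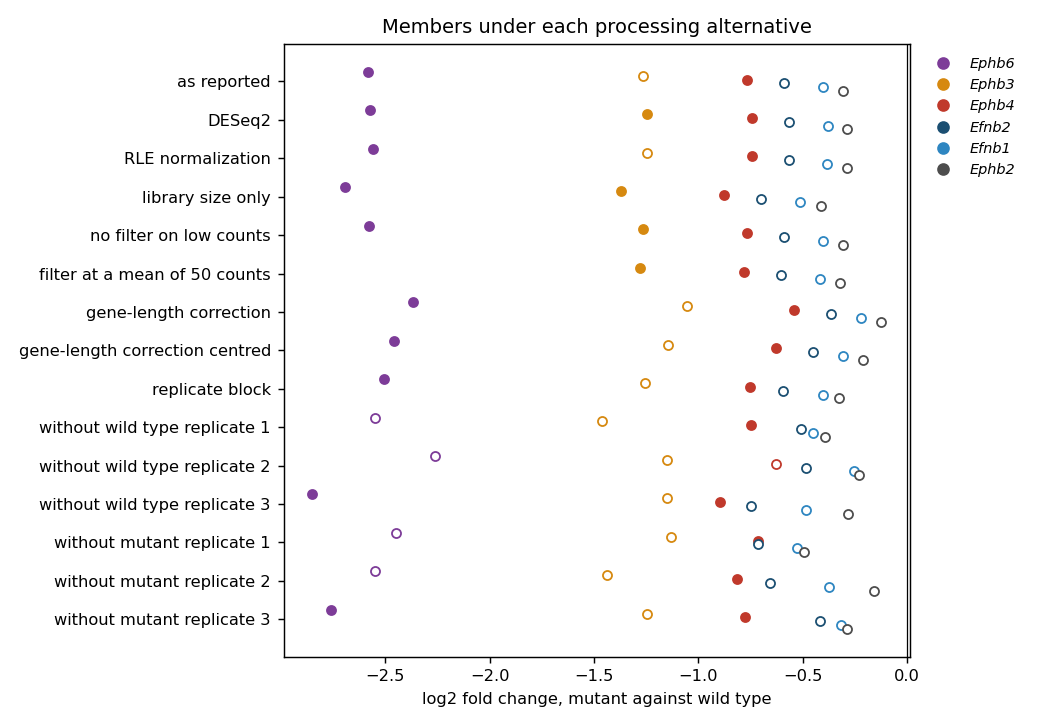
Log2 fold change of the 6 tested members as reported and under each of 14 alternatives, filled where the adjusted p was under 0.01. All values are negative, *Ephb6*, which has no value with the filter at a mean of 50, lies lowest, then *Ephb3*, then *Ephb4*, and *Ephb4* is open only without wild type 2.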

How the data were processed

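EpCAM+ small intestine cells were sequenced in 6 libraries at E13.5, 3 mutant and 3 wild type. Per the study's methods and the submitters' processing notes, the authors sorted 500 cells a library, made cDNA over 15 PCR cycles, mapped reads with STAR 2.5.2b to mm9 and counted uniquely mapping reads with featureCounts 1.5.1 on a UCSC gene model. They deposited raw counts per gene symbol, not normalized. Whether reads were counted by strand is not given in the sources used here. PCR reads without molecular identifiers are not independent molecules, so counting intervals and floors cover counting error only.

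The whole table of 23366 genes was tested with edgeR 4.0.16 in R 4.3.3 (TMM, filterByExpr, quasi-likelihood test on genotype, Benjamini-Hochberg), with a common dispersion of 0.0209, and the members were read from that fit. The study's methods use DESeq2, and version 1.42.0 was run as an alternative. SE is the size of the coefficient divided by the root of F. The study states an RPKM minimum, for which a mean normalized count of 50 was used. Positions and exon lengths come from GENCODE vM1 on mm9, which names 95.0% of tested genes. On simulated counts for 12501 genes in the same groups, edgeR recovered 95.7% of 93 genes changed by a log2 fold of 1 and 100% of 107 changed by 1.5. Every simulated gene had the common dispersion, and the changed genes were drawn only from those with a mean of at least 100 counts. *Ephb3* (mean 68.1) and *Ephb6* (31.5) lie below that, so these rates do not describe them. Members, lists and tests were chosen with earlier results of these data known. The text names all members, EphA family genes that were called or had a mean of at least 50 (and *Efna3*, added to complete the tested genes), called genes of the other lists, and the 2 genes nearest in profile to a called member. *Adam10*, *Axin2*, *Lgr5*, *Sp5*, *Znrf3*, *Myc*, *Vim*, *Col3a1*, *Pdgfra*, *Acta2*, *Epcam*, *Cldn7*, *Sox18* and the called epithelial markers were named after their values were seen. The alternatives were another test, scaling or filter, a length correction (loess, span 0.5), other thresholds, a block for the replicate number, and fits that each leave out a library. Python 3.11.15 and matplotlib 3.10.9 made tables and figures.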

Additional observations from a re-analysis of the deposited data

How the results depend on the processing

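The log2 fold change of all 6 tested members stayed negative in every alternative that gave a value, and 0 members were called higher. *Ephb4* was called in 13 of 14 alternatives, all but the fit without wild type 2 (-0.63). *Ephb3* was also called, making 2 members lower, with DESeq2 (-1.25), library size only (-1.37), no filter on low counts (-1.27) and a filter at a mean of 50 counts (-1.28), and at an adjusted p under 0.05. Leaving out a library gave 0 to 1 members called lower, 1 to 3 EphA family genes, 2 to 5 signalling partners and 1 to 4 crypt WNT targets, and 405 to 867 genes lower (405 without wild type 1, 406 without wild type 2, 463 without mutant 2) and 260 to 516 higher among all genes. The log2 fold change then lay between -0.90 and -0.63 for *Ephb4*, -1.46 and -1.13 for *Ephb3*, -2.85 and -2.26 for *Ephb6*, -0.50 and -0.16 for *Ephb2*, -0.53 and -0.25 for *Efnb1*, and -0.75 and -0.42 for *Efnb2*. *Ephb6* has no value with the filter at a mean of 50 counts.

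Over all tested genes, 729 were called lower and 348 higher, so 32.3% of calls were higher. The gene-length correction gave 393 and 711 (64.4% higher, and 44% once centred), with the median of all genes at 0.09 against -0.04, and 1 EphA family gene higher, 1 partner lower and 1 WNT target lower. The centred correction also left 1 partner lower, and it left 2 WNT targets lower. Library size only left 200 higher (17.3% of calls), with a median of -0.15. An adjusted p under 0.05 gave 1178 lower and 8 partners lower, and no fold minimum gave 902 higher.

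The replicate block gave 691 lower and 339 higher genes and the same 1 member, *Ephb4* (-0.75), with no change in any member's call. The same-numbered libraries did not deviate together, with correlations of 0.00971, -0.0449 and -0.0179. No sign of pairing by number was thus seen, although so few libraries cannot exclude it.

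Per longest transcript, the wild type level was 1.08 for *Ephb2* and 1.04 for *Ephb3*. Per coding length it was 3.99 for *Ephb2*, 1.65 for *Ephb3*, 14.1 for *Ephb4*, 9.16 for *Efnb1*, 10.3 for *Efnb2* and 0.547 for *Efnb3*. The share of *Ephb4* was then 34.6% and 31.5%, and that of *Ephb6* 2.17% and 0.577% (wild type and mutant). Low counts limit *Ephb1*, *Efnb3* and, in mutants, *Ephb6*.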
